A study of Mus musculus with 2 samples.

Results

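The DNA replication genes described here are 41 genes chosen by symbol, from the origin recognition complex to DNA ligase, together with the nucleotide and histone supply genes Rrm1, Rrm2 and Slbp, the uracil glycosylase gene Ung and the fork protection gene Tipin. All 41 were found among the 32285 genes of the files, all are annotated as protein coding, and each had a mean level of at least 10 CPM (counts per 1000000 UMIs) over the libraries, from 12.6 CPM for Gins3 to 296.4 CPM for Mcm7. A UMI is a molecular barcode that marks 1 captured RNA molecule. The genes were followed in mouse gastruloids, small aggregates of embryonic stem cells that begin to pattern in culture. Each aggregate was started in serum-free N2B27 medium from about 300 embryonic stem cells, either wild type R1 cells or cells with a double knockout of Sp5 and Sp8, which encode zinc finger transcription factors. Both genotypes were treated with CHIR at 3 µM, which inhibits GSK3 and so raises Wnt signalling, for 12 h from day 2, and aggregates were pooled and dissociated at day 2.5. There was 1 10x 3′ single-cell library per genotype. No replicate measures the spread between aggregates or cultures, no test was possible, and every interval below is a 95% interval that covers counting error only. The labels do not say whether the knockout line is 1 clone.

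Replication begins when the origin recognition complex, Cdc6 and Cdt1 load the MCM2-7 helicase onto DNA in G1, a step called licensing, which geminin blocks later in the cycle. In S phase Cdc45, the GINS complex and Mcm10 turn the loaded helicase into an active one, primase and polymerase alpha lay down primers, the RFC complex loads the PCNA clamp, and polymerases delta and epsilon extend the strands. Many of the genes are known targets of E2F transcription factors, which act at the G1/S transition, and mouse embryonic stem cells are known for a short G1 and a large share of cells in S phase.

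After keeping barcodes with at least 2500 UMIs, at least 1000 genes and at most 10% mitochondrial UMIs, the library labelled wild type held 8707 cells and the library labelled double mutant 10587, against 9238 and 11190 captured cells stated in the labels. Median depth was 10571 and 8637 UMIs per cell, and 27 barcodes occurred in both libraries. Sp5, which the labels say is mutated in the double mutant, was at 109.1 CPM in the library labelled wild type and at 478.7 CPM in the library labelled double mutant, and Sp8 at 20.8 and 40.1 CPM. Both targeted genes were therefore higher where the label gives a knockout, by 2.13 (2.10 to 2.16) and 0.95 (0.87 to 1.03) on the log2 scale. Whether these 3′ reads lie outside a deleted part was not tested, so directions below are given as the library labelled double mutant over the library labelled wild type.

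Promoter sequences were taken from RefSeq (GRCm38.p6), 300 bases per start site, from 250 before to 50 after it. Of the 41 genes, 32 matched, with 40 promoters. They were searched on both strands for the E2F octamers TTTCGCGC, TTTGGCGC, TTTCCCGC and TTTGCCGC, and 13 of the 40 promoters (32.5%) held at least 1, compared with 744 of all 32851 promoters (2.26%). The 13 belonged to Orc1, Orc3, Cdc6, Cdt1, Mcm3, Mcm5, Mcm6, Mcm7, Gins3, Rfc3, Pola1, Pold1 and Lig1. The GC box GGGCGG was found in 28 of the 40 (70%) against 35.7% of all promoters, and CCAAT in 23 (57.5%) against 37.4%. The CHR elements TTTGAA and TTCGAA, known from mitotic promoters, were found in 7 of the 40 (17.5%) against 19.2%. E2F and GC box letters can share bases, and a match is a description of letters, not of binding. The 32851 promoters were not limited to genes of at least 10 mean CPM, a level that all 41 genes reach. The 250 bases before the start are printed for 4 genes: Cdc6 and Ung, whose levels varied most over the cell cycle below, and the helicase genes Mcm5 and Mcm6, which hold overlapping octamers. Capitals mark the E2F octamers, and each sequence is read 5′ to 3′ on the gene's own strand (plus for Cdc6, Mcm5 and Ung, minus for Mcm6).
Cdc6, chr11:98907901-98908150: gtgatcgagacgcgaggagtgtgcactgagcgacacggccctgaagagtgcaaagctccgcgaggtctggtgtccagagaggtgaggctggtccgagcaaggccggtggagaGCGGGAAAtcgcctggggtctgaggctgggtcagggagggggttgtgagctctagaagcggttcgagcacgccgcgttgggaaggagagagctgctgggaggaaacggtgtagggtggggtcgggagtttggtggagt
Mcm5, chr8:75109259-75109508: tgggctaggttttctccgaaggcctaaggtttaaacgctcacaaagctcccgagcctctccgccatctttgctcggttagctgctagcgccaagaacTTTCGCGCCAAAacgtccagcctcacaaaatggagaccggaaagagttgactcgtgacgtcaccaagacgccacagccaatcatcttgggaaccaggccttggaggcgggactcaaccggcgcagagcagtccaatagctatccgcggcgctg
Mcm6, chr1:128359706-128359955: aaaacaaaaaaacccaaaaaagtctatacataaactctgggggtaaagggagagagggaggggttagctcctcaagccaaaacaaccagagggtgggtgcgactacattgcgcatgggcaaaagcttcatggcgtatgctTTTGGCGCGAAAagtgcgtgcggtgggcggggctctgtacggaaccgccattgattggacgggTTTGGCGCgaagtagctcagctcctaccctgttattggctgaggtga
Ung, chr5:114130185-114130434: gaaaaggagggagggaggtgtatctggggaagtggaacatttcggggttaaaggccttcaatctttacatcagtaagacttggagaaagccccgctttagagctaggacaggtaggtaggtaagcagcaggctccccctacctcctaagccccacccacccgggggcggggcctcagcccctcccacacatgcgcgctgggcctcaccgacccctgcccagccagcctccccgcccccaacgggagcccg
The Cdc6 octamer begins 138 bases before the RefSeq start. The GENCODE annotation, used here for gene positions, starts Cdc6 at 98907801, so the whole printed Cdc6 window lies inside that annotated gene. It starts Ung at 114130386, inside the printed Ung window. In Mcm5, octamers on opposite strands begin 153 and 149 bases before the start and share bases, and Mcm6 holds the same arrangement at 110 and 106 bases and a separate octamer at 47. The Ung window held no octamer and 2 GC boxes, beginning 87 and 20 bases before the start.

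As a group, the replication genes were at nearly the same level in the libraries. In the library labelled wild type their summed level was 4251.7 CPM (4238.8 to 4264.7), and under the double mutant label it was 4136.3 CPM (4123.6 to 4149.1), a log2 ratio of -0.040 (-0.046 to -0.033). With every cell thinned to 2500 UMIs, the median cell held 10 UMIs of the group in each library, the 5th to 95th percentiles were 5 to 18 and 5 to 17, and a median of 9 of the 41 genes were detected. No UMI of the group was seen in 2 and 1 cells at this depth. The part of free RNA in these UMIs was not tested. The median log2 ratio of the 41 genes was -0.038 (quartiles -0.082 and 0.031), compared with -0.023 (quartiles -0.11 and 0.068) for all 7607 genes of at least 10 mean CPM. Of the 41 genes, 14 (34.1%) lay above 0 and 27 (65.9%) below, against 42.9% and 57.1% of all genes. The counting intervals of 9 and 15 lay wholly above and below 0, against 25.9% and 37.6% of all genes. At an absolute log2 ratio of 0.25, the limit used here, 1 replication gene was counted on the higher side, against 3.13% of all genes, and 0 on the lower side, against 4.67%.

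**Figure D1:**
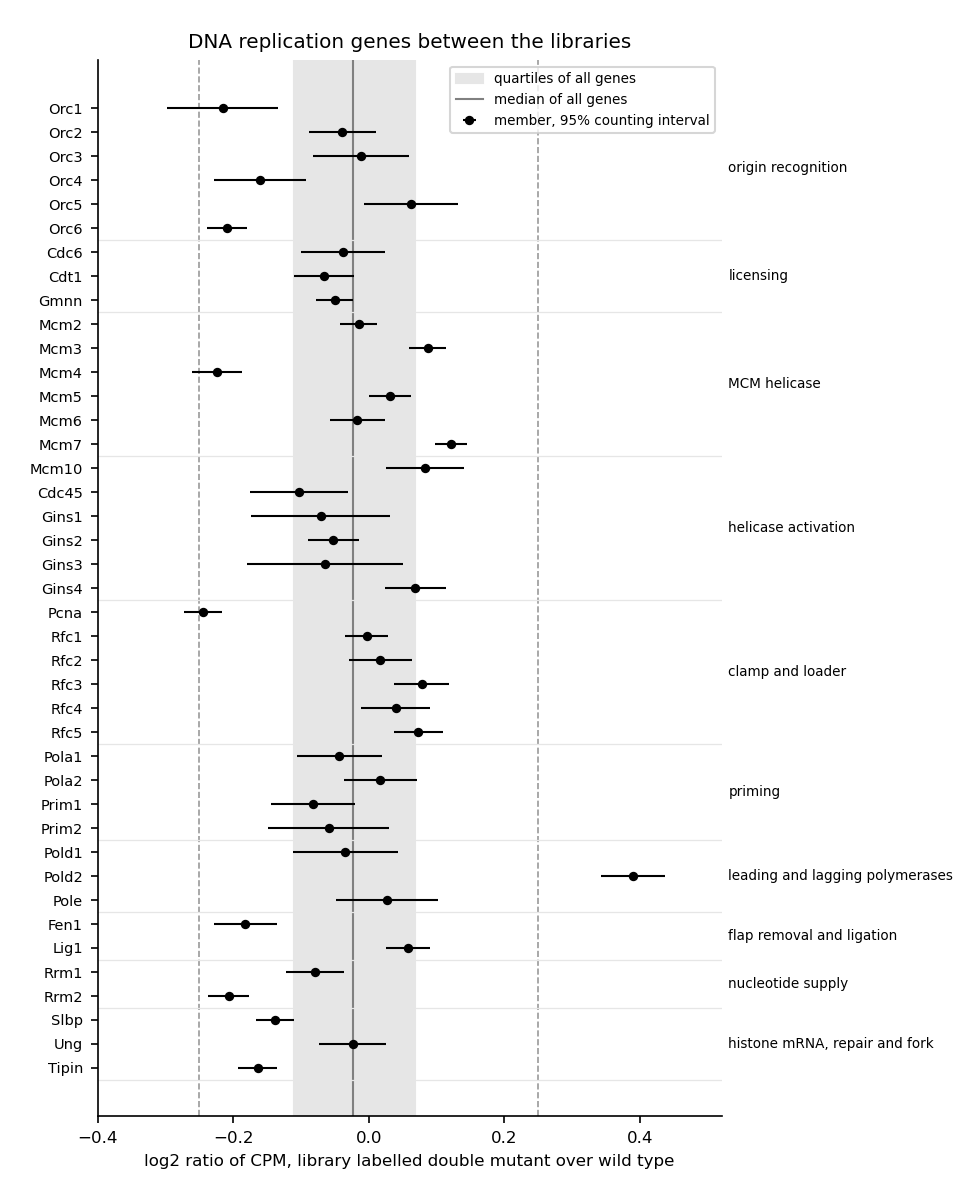
Log2 ratio of CPM, library labelled double mutant over library labelled wild type, for the 41 replication genes ordered by role; bars are 95% counting intervals, the grey band and line are the quartiles and median of all genes. Pold2 stands apart at 0.39, and the other 40 genes lie between -0.24 and 0.12.

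In the origin recognition complex, which marks start sites of replication, the 6 genes had a median log2 ratio of -0.10. Orc6 was at 208 and 180 CPM in the libraries labelled wild type and double mutant, a log2 ratio of -0.21 (-0.24 to -0.18). Orc1, the cell-cycle-regulated largest subunit, was at 27.0 and 23.3 CPM, -0.22 (-0.30 to -0.13), and Orc4 at 38.3 and 34.2 CPM, -0.16 (-0.23 to -0.09). Orc1, Orc4 and Orc6 thus had lower levels under the double mutant label, while Orc2, Orc3 and Orc5 lay between -0.04 and 0.06. Orc6 lies on chromosome 8 (85299632 to 85308278, plus strand, GRCm38) and, like 16 other genes of the group, overlaps an annotated antisense gene. Whether counting used strand is not given in the sources used here. Among the licensing genes, Cdc6 was at 43.4 and 42.2 CPM, Cdt1 at 86.0 and 82.1 CPM, and Gmnn, which encodes the Cdt1 inhibitor geminin, at 222.7 and 215.1 CPM. Their log2 ratios, -0.04 (-0.10 to 0.02) for Cdc6, -0.07 for Cdt1 and -0.05 for Gmnn, were close to the median of all genes.

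The 6 subunits of the MCM helicase did not move together between the libraries. Mcm4 was at 136.9 and 117.2 CPM, a log2 ratio of -0.22 (-0.26 to -0.19), the lowest ratio of the 6. Mcm7 was at 284 and 308.9 CPM, 0.12 (0.10 to 0.15), and Mcm3 at 210.2 and 223.2 CPM, 0.09, so these 2 were the higher ones. Mcm2 (216.7 and 214.4 CPM), Mcm5 (166.6 and 170.2 CPM) and Mcm6 (99.3 and 98.2 CPM) lay between -0.02 and 0.03. The subunits act as a 1:1 hexamer at the protein level, and the median of the 6 was 0.01. Mcm4 lies on chromosome 16 (15623897 to 15637400, minus strand) and overlaps no annotated antisense gene. The helicase activation genes Cdc45, Gins1, Gins2, Gins3, Gins4 and Mcm10 had a median of -0.06 and lay between -0.10 for Cdc45 (33.1 and 30.8 CPM) and 0.08 for Mcm10 (48.7 and 51.6 CPM). Gins1 (16.4 and 15.6 CPM) and Gins3 (12.9 and 12.4 CPM) were among the genes with the fewest UMIs.

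Pcna, the sliding clamp, was at 237.4 CPM in the library labelled wild type and 200.4 CPM in the library labelled double mutant, and its log2 ratio of -0.24 (-0.27 to -0.22) was the lowest of the 41 genes. It stood just inside the limit of -0.25 and, at -0.26, just outside it when every sector was given the same weight in both libraries. The genes of its loader did not share this: Rfc1 was at 164.1 and 163.7 CPM, Rfc2 at 76.4 and 77.3 CPM, Rfc3 at 96.2 and 101.5 CPM, Rfc4 at 64.2 and 66.0 CPM and Rfc5 at 123.3 and 129.7 CPM, with log2 ratios from 0.00 to 0.08. The Pcna locus is on chromosome 2 (132249162 to 132253314, minus strand). For priming, Pola1 was at 42.7 and 41.4 CPM, Pola2 at 57.0 and 57.7 CPM, and the primase genes Prim1 and Prim2 at 44.1 and 41.7 CPM and at 21.3 and 20.5 CPM. None of the 4 was further from 0 than -0.08.

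Pold2, a small subunit of DNA polymerase delta, was the only replication gene past the limit. It was at 66.1 CPM in the library labelled wild type and 86.5 CPM in the library labelled double mutant, a log2 ratio of 0.39 (0.34 to 0.44), the 70th highest of the 7607 genes. The catalytic subunit genes Pold1 (28.4 and 27.7 CPM, -0.03) and Pole (29.2 and 29.8 CPM, 0.03) were close to 0, so the polymerase delta genes of the group differed in their ratios. Pold2 lies on chromosome 11 (5872180 to 5878292, minus strand), and its level beside that chromosome's share of UMIs is given further on.

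At the finishing and supply steps, Fen1, Rrm2, Slbp and Tipin had lower levels under the double mutant label. Fen1, the flap endonuclease, was at 83.0 and 73.2 CPM (-0.18, -0.23 to -0.14), while the ligase gene Lig1 was at 153.1 and 159.4 CPM (0.06). Rrm2, the regulated subunit of ribonucleotide reductase, was at 191.2 and 165.7 CPM (-0.21, -0.24 to -0.18), and its partner Rrm1 at 94.3 and 89.3 CPM (-0.08). Slbp, which binds the stem-loop of histone mRNAs, was at 218.1 and 198.1 CPM (-0.14, -0.17 to -0.11). Tipin was at 206.6 and 184.4 CPM (-0.16, -0.19 to -0.13), and Ung, which removes uracil from DNA, at 69.0 and 67.9 CPM (-0.02, -0.07 to 0.03). Over the whole group, 8 genes (19.5%) lay at -0.15 or lower: Orc1, Orc4, Orc6, Mcm4, Pcna, Fen1, Rrm2 and Tipin. Among all genes 16.3% did, so the share was near the background.

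The pathway's other genes, 59 listed by role, were read beside the group. Of these, 52 reached 10 mean CPM, with a median log2 ratio of -0.066; 12 lay above 0 and 40 below, against 42.9% and 57.1% of all genes. Past the limit were 0 on the higher side and 3 on the lower side, against the 3.13% and 4.67% of all genes given above. The 3 were Rpa3, a subunit of the single-strand binding protein RPA, at 106.5 and 62.5 CPM (-0.77, -0.82 to -0.72), Rb1, the E2F-binding retinoblastoma protein gene, at 14.7 and 11.7 CPM (-0.33, -0.44 to -0.22), and Rnaseh1, which degrades RNA in RNA-DNA hybrids, at 33.9 and 27.6 CPM (-0.29, -0.37 to -0.22). Rpa3, on chromosome 6, was further from 0 than any of the 41 genes.

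To describe the cell cycle without using the 41 genes themselves, cells were placed by 2 lists of other genes. These were 23 G1/S genes, such as Tyms, Uhrf1 and Ccne1, and 54 mitotic genes, such as Top2a, Ube2c and Ccnb1. The G1/S list also holds genes tied to replication, among them Clspn, Dscc1 and Chaf1b, so it is not separate from the pathway. The summed UMIs of each list at 2500 UMIs per cell set an angle, and 8 sectors of 45 degrees were cut. The summed level of the replication genes was highest where the G1/S list was high and the mitotic list low, at 4869 CPM in 1292 cells of the library labelled wild type and 4723 CPM in 1618 cells of the library labelled double mutant. It was lowest where the mitotic list was high and the G1/S list low, at 3743 CPM in 1238 cells and 3638 CPM in 1444 cells. The sector with the lowest sum was the same in both libraries, and so was the sector with the highest. Median depth moved with the sectors too, at 9715.5 UMIs per cell where the summed replication level was highest and 11892 where it was lowest in the library labelled wild type, and 7986 and 9833 in the other library. Over terciles of depth within a library, the summed level went from 4504 CPM in the shallowest cells to 4001 CPM in the deepest, and from 4368 to 3908 CPM. The part of depth in the sector differences was not tested.

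Ung varied most over the sectors. From the sector with the G1/S list high and the mitotic list low, and on through G1/S list high, both high, mitotic list high, mitotic list high with G1/S low, G1/S list low, both low and mitotic list low, its level was 108.7, 90.1, 55.8, 41.9, 35.6, 54.6, 78.7 and 106.3 CPM in the library labelled wild type. In the library labelled double mutant it was 102.7, 87.9, 52.1, 41.8, 37.7, 52.3, 73.985 and 100.6 CPM. The level was thus 3.05 times (2.76 to 3.38) and 2.73 times (2.47 to 3.02) as high in the highest sector as in the lowest, with the same highest and lowest sector in both libraries. For every gene the highest and lowest sectors were picked from the same counts, and the intervals of these ranges do not cover that choice. Cdc6, the licensing factor, came next. In the same order its level was 65.1, 64.4, 39.7, 29.5, 27.7, 31.1, 36.2 and 55.7 CPM in the library labelled wild type and 63.7, 59.1, 39.0, 27.9, 27.6, 33.6, 36.4 and 51.8 CPM in the other. These are ranges of 2.35 times (2.09 to 2.65) and 2.31 times (2.05 to 2.61). The Cdc6 promoter window printed above holds an E2F octamer and that of Ung does not.

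**Figure D2:**
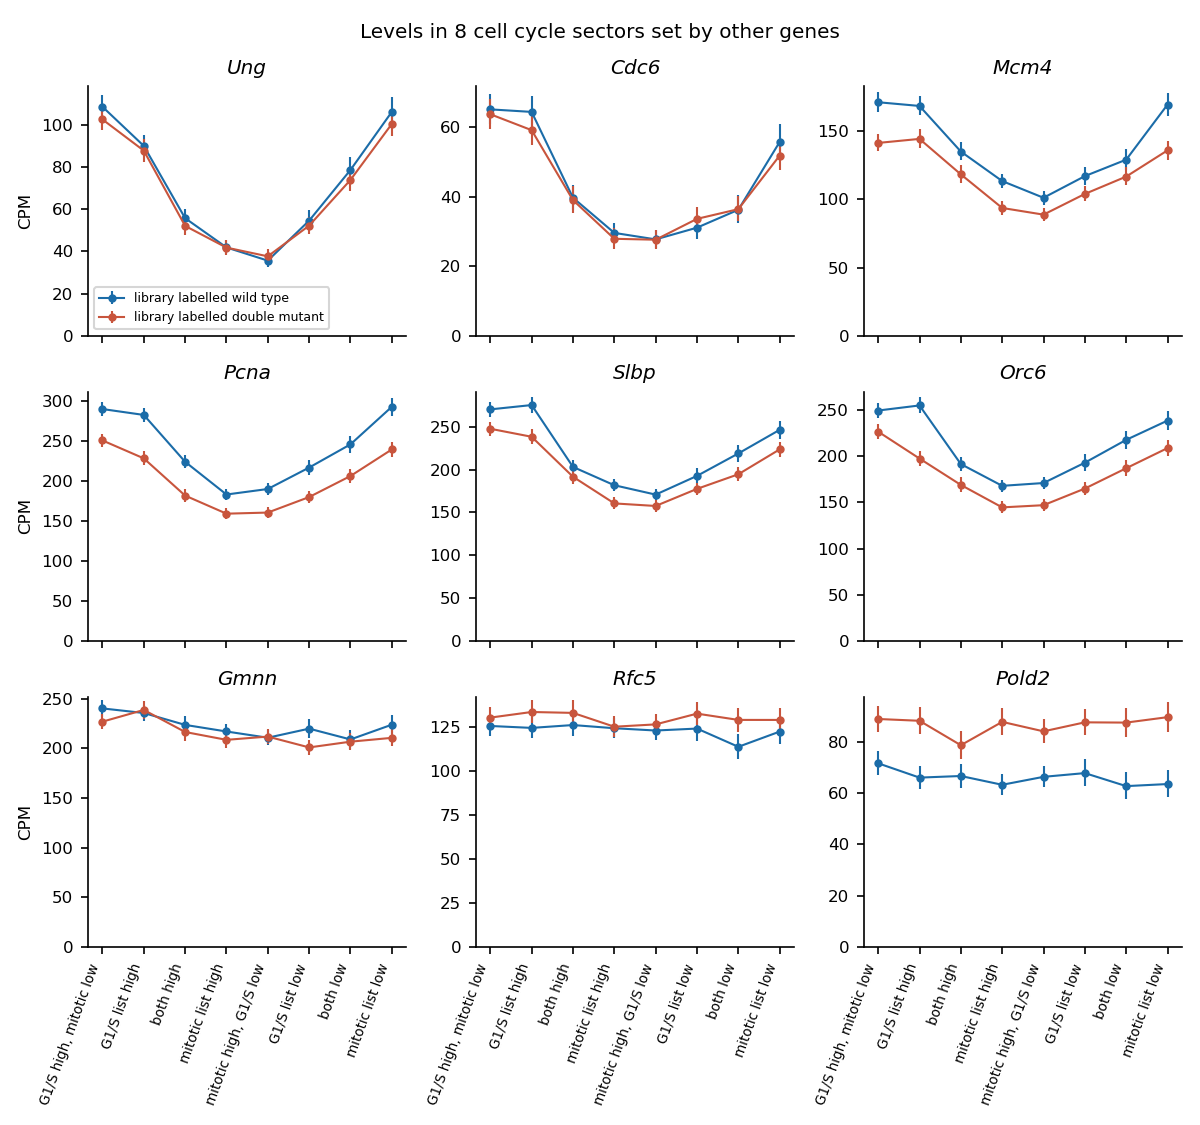
CPM of 9 replication genes in 8 cell cycle sectors of each library, with 95% counting intervals; axes start at 0. Ung and Cdc6 fall to their lowest levels where the mitotic list is high and the G1/S list low, Pcna, Mcm4, Slbp and Orc6 vary less, and Rfc5 and Pold2 stay nearly level.

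Of the 41 genes, 7 in each library had a range of at least 1.5 times, compared with 4.77% and 3.86% of the 7530 genes of at least 10 mean CPM outside the staging lists, the 41 included. These included, in both libraries, 6 genes: Orc6, Cdc6, Mcm4, Pcna, Slbp and Ung. Mcm4 lay between 101.3 and 171.4 CPM in the library labelled wild type and between 88.9 and 144.5 CPM in the other (1.69 and 1.63 times). Slbp ranged from 170.8 to 275.1 CPM and from 157.5 to 247.5 CPM (1.61 and 1.57 times). Pcna ranged from 183.6 to 293.3 CPM and from 159.6 to 251.2 CPM (1.60 and 1.57 times), and Orc6 from 167.9 to 254.7 CPM and from 144.6 to 226.4 CPM (1.52 and 1.57 times). All 6 were lowest in a sector of high mitotic list. The seventh gene was Gins3 in the library labelled wild type, at 1.68 times with a wide interval (1.31 to 2.19) and 1.27 times in the other library, and Cdc45 in the library labelled double mutant, at 1.59 times and 1.42 times in the other. Just under the limit stood Mcm5 (1.48 and 1.43 times), Rfc3 (1.46 and 1.41 times), Mcm6 (1.42 and 1.46 times) and Mcm10 (1.42 and 1.46 times).

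The median range was 1.30 and 1.29 times for the 41 genes and 1.20 times in each library for all genes, with 1.66 and 1.68 times for the G1/S staging genes themselves, which set the sectors. Most clamp loader genes were among the flatter ones: Rfc5 ranged over 1.11 and 1.07 times, Rfc2 over 1.10 and 1.17 times, Rfc4 over 1.14 and 1.15 times and Rfc1 over 1.16 and 1.15 times, while Rfc3 was near the limit. Gmnn, whose protein is known to be removed in G1 by degradation, ranged over 1.15 and 1.19 times at the RNA level. Pold2 was between 62.7 and 71.6 CPM in the sectors of the library labelled wild type and between 78.6 and 89.6 CPM in the other. These are ranges of 1.14 times in each library. The highest sector was one of the 2 with high G1/S list and a mitotic list that was low or intermediate for 32 of 41 genes in each library, against 27% and 28.9% of all genes. The lowest was one of the 2 with high mitotic list and a G1/S list that was low or intermediate for 23 and 30 of 41, against 18.4% and 21.9%.

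**Figure D3:**
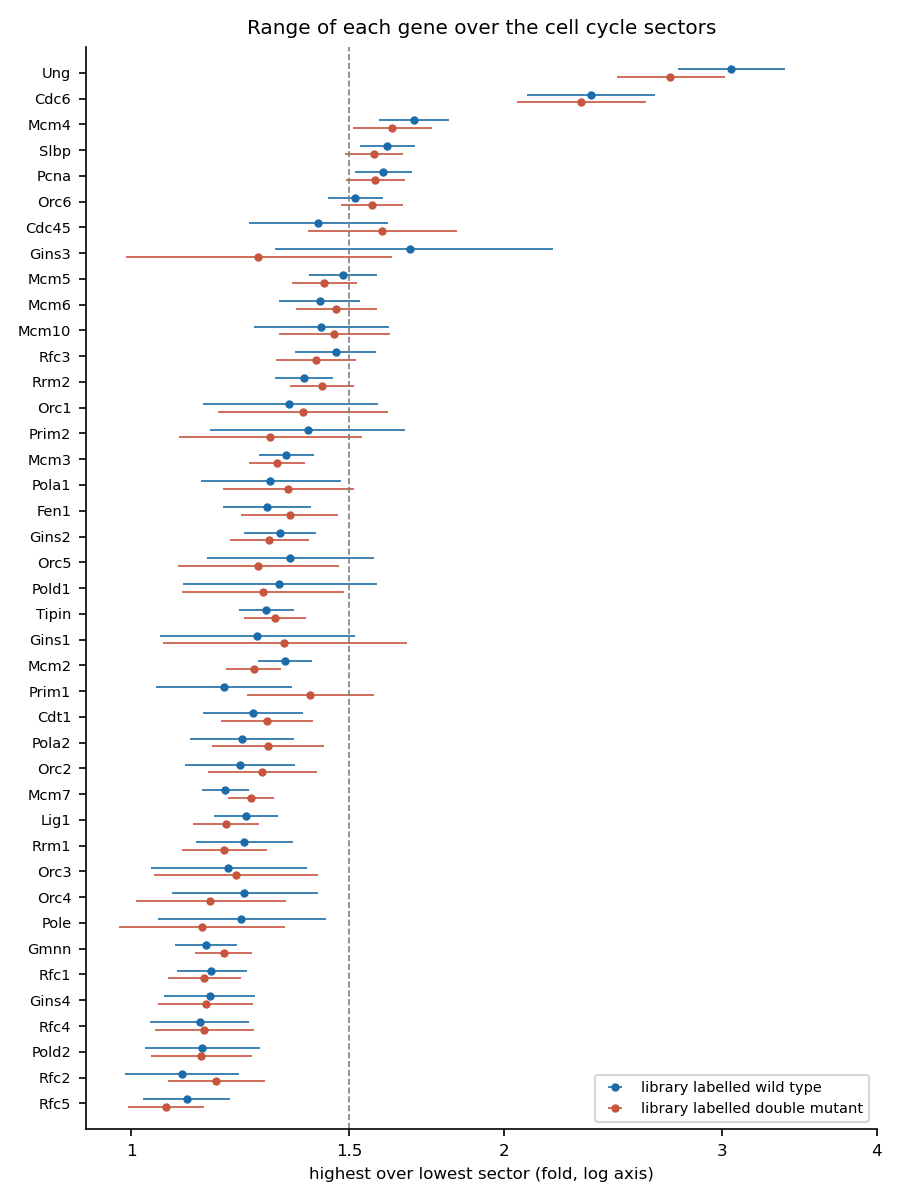
Highest over lowest sector level of each replication gene in each library on a log axis, with 95% counting intervals of the ratio; the dashed line marks 1.5 times. Ung (3.05 and 2.73 times) and Cdc6 (2.35 and 2.31 times) lie far beyond the other genes in both libraries. The intervals do not cover the choice of the highest and lowest sector.

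The genes furthest from 0 between the libraries kept their sign in every cycle sector. Within each of the 8 sectors the log2 ratio of Pcna was below 0, from -0.31 to -0.20, and that of Pold2 above 0, from 0.24 to 0.50. In all, 10 of 41 genes were below 0 in every sector (Orc1, Orc4, Orc6, Mcm4, Pcna, Prim1, Fen1, Rrm2, Slbp and Tipin) and 4 above 0 in every sector (Mcm3, Mcm7, Rfc5 and Pold2). Of all genes, 19.5% were below 0 and 14.9% above 0 in every sector. The other 27 replication genes had both signs. Sectors of 1 library are not replicates of it. Pcna and Pold2 were picked by their ratio over the same cells, so their sign by sector is no separate evidence. The staging lists moved like the group between the libraries, with a median of -0.038 for the G1/S list and -0.043 for the mitotic list.

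From cell to cell, replication genes varied together. The correlation of UMI shares over cells, with the part due to counting taken out, was computed within each library. Pairs are given for the 15 genes of at least 100 mean CPM, because the estimate was unstable at lower levels in simulated data; this limit was set after seeing the values. Over their 105 pairs the median correlation was 0.46 (quartiles 0.31 and 0.61) in the 8707 cells of the library labelled wild type and 0.44 (0.28 and 0.57) in the 10587 cells of the other. For all 1565 genes at that level the median was 0.018 in both. Of the 105 pairs, 101 and 102 were above 0, 99 in both libraries, and 28 were at 0.5 or higher in both. The share of all gene pairs past these values was not counted. Values of a pair differed by a median of 0.11 between the libraries and by up to 0.45. Cells of 1 library share its preparation, and genes of similar cycle timing share the cycle, so these values are descriptions.

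The closest pair was Mcm5 and Pcna, a helicase subunit and the clamp, at 0.89 and 0.93. Mcm2 with Mcm5 gave 0.76 and 0.73, Mcm4 with Mcm5 0.72 and 0.69, and Mcm4 with Pcna 0.73 and 0.76. A further close pair was Orc6 and Slbp, at 0.74 and 0.76, and Pcna and Tipin were at 0.71 and 0.74. Gmnn was closest in this sense to Rrm2, at 0.58 and 0.61. Rfc5 had the lowest median over its 14 pairs of the 15 genes, 0.06 and 0.10. Its values ran from -0.14 and -0.11, both with Rfc1, its partner in the same complex, up to 0.28 with Mcm2 in the library labelled wild type and 0.45 with Tipin in the other. With the summed G1/S list, 14 and 15 of the 15 genes were correlated above 0, and with the summed mitotic list 14 and 13 were below 0. The share of all genes with these signs was not counted. Pcna was at 0.69 and 0.74 with the G1/S list and at -0.52 and -0.60 with the mitotic list. Gmnn differed, at 0.47 and 0.43 with the G1/S list and at -0.02 and 0.05 with the mitotic list. Ung and Cdc6 are below 100 CPM, where the estimate was unstable in simulated data, but had the largest spread over cells by the same estimate. Ung was at 0.66 and 0.74 and at -0.62 and -0.70, and Cdc6 at 0.66 and 0.73 and at -0.33 and -0.34.

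**Figure D4:**
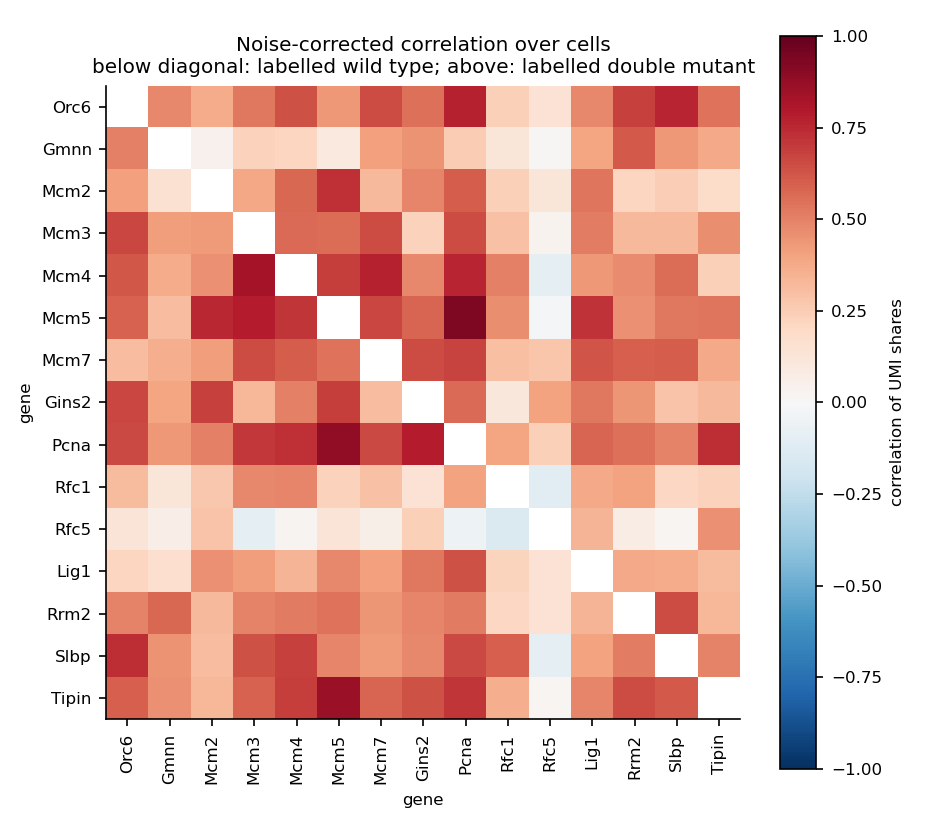
Correlation of UMI shares over cells, corrected for counting, between the 15 replication genes of at least 100 mean CPM; the library labelled wild type is below the diagonal and the library labelled double mutant above. Most pairs are above 0 in both libraries, Mcm5 with Pcna is the highest (0.89 and 0.93), and the row of Rfc5 has the lowest median of the 15 in both libraries (0.06 and 0.10).

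The spread of a gene's share over cells beyond counting was largest for Cdc6, at 86.5% and 82.8% of its mean, and Ung, at 66.8% and 58.8%. It was 46.9% and 44.5% for Rrm2, 40.0% and 38.7% for Mcm4, 38.2% and 41.2% for Slbp, 35.9% and 31.2% for Pcna and 21.3% and 20.7% for Rfc5. The median was 28.5% and 29.1% over the 15 replication genes of at least 100 mean CPM. Over all 1565 genes at that level it was 22.2% and 21.5%. No spread beyond counting was measurable for Orc3, Gins1 and Gins3 in the library labelled wild type and for Orc4, Orc5 and Prim2 in the other, all genes of low counts.

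The median replication gene differed by -0.14 to 0.10 on the log2 scale between cells carrying a set of developmental or stress markers and the other cells of their library. Cells were set apart by the summed UMIs of marker lists at 2500 UMIs per cell. These are ranges of a score, not cell types, and many cells lie 1 UMI below a limit. Some lists rest mainly on a single gene. In the library labelled wild type, Eomes held 91.2 of the 109.0 CPM of the mesendoderm list. Foxb1 held 119.1 of 156.1 CPM of the neural list, and Col4a1 32.0 of 45.1 CPM of the extraembryonic endoderm list. The same genes led these lists in the other library. In cells at 2 or more UMIs of naive pluripotency genes such as Klf2, Zfp42 and Esrrb (199 and 157 cells, with 1019 and 1117 cells 1 UMI below), the median log2 ratio of the 41 genes to the other cells of the library was 0.06 and 0.04. None of the 41 was past 1.5 times, against 1.89% of all genes higher and 1.37% lower, and 2.74% and 2.87%. In cells with mesendoderm genes such as Eomes and Gsc (85 and 411 cells, with 305 and 873 just below) the median was 0.04 and 0.01, again with none of the 41 past 1.5 times, against 2.5% higher and 4.12% lower, and 0.447% and 0.618%. Cer1 was at 0 in the library labelled wild type. In cells with stress response genes such as Chac1 and Sesn2 (247 and 385 cells, with 1453 and 2070 just below) the median was -0.03 and -0.05 with none past 1.5 times, against 0.355% and 0.395%, and 0.105% and 0.237%. Over 12 such comparisons, 13 of 492 values were past 1.5 times, 3 higher and 10 lower, against 4.52% higher and 3.76% lower of all genes over the same ranges, and none of the 41 was past it in the same range in both libraries.

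Cdc6 was the gene that stood out in cells with primitive streak genes such as T, Mixl1, Fgf8 and Sp5. In the library labelled double mutant it was at 28.4 CPM in 534 such cells and 43.0 CPM in the others, a log2 ratio of -0.59 (-0.85 to -0.35) from 139 UMIs. It was the only one of the 41 past 1.5 times lower there, against 0.539% of all genes, and none was past it higher, against 0.171%. The median of the 41 was -0.03. In the library labelled wild type only 31 cells reached the same limit of 6 UMIs, Cdc6 was at 45.7 and 43.4 CPM from 16 UMIs (0.12, -0.73 to 0.78), and Prim2 was past 1.5 times higher and Pold1 lower on 11 and 5 UMIs, against 8.18% and 11.4% of all genes. The list holds Sp5, whose level differed between the libraries. Sp5 held 109.1 of the 330.2 CPM of the list in the library labelled wild type. In the library labelled double mutant it held 478.7 of 784.1 CPM, so the list rests mainly on Sp5 there. Without Sp5, 110 and 286 cells were set apart, and Cdc6 was at -0.08 (-0.52 to 0.29) and -0.46 (-0.80 to -0.16). In the library labelled double mutant the Cdc6 ratio was -0.47 (-0.91 to -0.09) within the 2 sectors of high G1/S list and -0.62 (-0.96 to -0.32) in the other sectors. The 2 sectors held 25.3% of the cells with streak genes and 27.9% of the others. Cdc6 was picked out after 492 values had been seen, and the difference between libraries was not tested.

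In cells with neural genes such as Foxb1 and Irx3 (128 and 77 cells), the median of the 41 was 0.06 and 0.01. Pold1 was past 1.5 times lower in the library labelled wild type, against 2.37% of all genes higher and 2.55% lower. In the other library Rfc3 was higher, at 157.0 against 101.1 CPM (0.64, 0.34 to 0.92), and Orc4 and Ung were lower on 13 and 25 UMIs, against 5.65% and 5.48%. In cells with extraembryonic endoderm genes such as Col4a1 and Dab2 (55 and 49 cells, with 696 and 765 just below), the summed replication level was lower in the library labelled wild type, at 3869 against 4254 CPM (-0.14, -0.20 to -0.08), and not distinguishable in the other, at 4066 against 4137 CPM (-0.02, -0.09 to 0.04). In these cells the G1/S list was at 0.858 and 0.921 times and the mitotic list at 0.858 and 0.841 times its level in the others, so both staging lists were lower too; their part was not tested. In the library labelled wild type 1 replication gene (Cdc6) was past 1.5 times higher and 4 (Orc5, Mcm6, Gins1 and Prim2) lower, against 15.3% and 7.22% of all genes. In the other library 0 were higher and 1 (Pold1) lower, against 14.5% and 8.27%. Only 9 and 13 cells reached the limit for caudal genes such as Cdx2, too few to describe.

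Mcm2 on chromosome 6 and Cdc6 and Pold2 on chromosome 11 lie on chromosomes whose share of a cell's UMIs was low in part of the cells. At or below 0.8 times the median share were 1844 cells (21.2%) and 1922 cells (18.2%) for chromosome 6, and 1533 cells (17.6%) and 616 cells (5.82%) for chromosome 11, with the replication genes left out of the share. Mcm2 was at 168.1 CPM in cells low in chromosome 6 and 228.4 CPM in the other cells of the library labelled wild type, and at 151.8 and 227.7 CPM in the library labelled double mutant. Its log2 ratios of -0.44 (-0.50 to -0.39) and -0.58 (-0.64 to -0.52) stood beside medians of -0.49 and -0.53 over that chromosome's genes. Cdc6 was at 31.6 and 45.5 CPM and at 31.7 and 42.8 CPM, ratios of -0.53 (-0.67 to -0.39) and -0.43 (-0.67 to -0.20). Pold2 was at 51.4 and 68.7 CPM and at 56.2 and 88.1 CPM, ratios of -0.42 (-0.53 to -0.31) and -0.65 (-0.83 to -0.47), beside chromosome 11 medians of -0.50 and -0.53. The 3 genes were thus lower in these cells by about as much as the median gene of their chromosomes. The cells were chosen by the summed share of those chromosomes' genes, so the medians lie below 0 by construction.

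**Figure D5:**
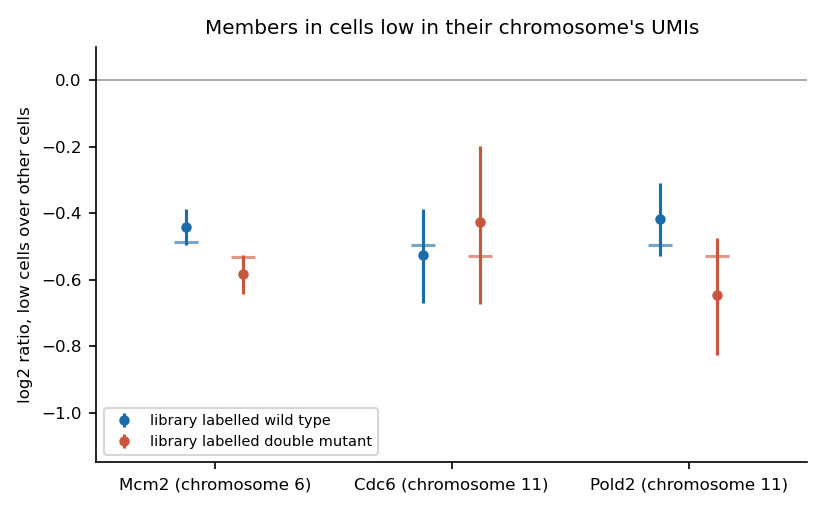
Log2 ratio of CPM in cells low in chromosome 6 or 11 over the other cells of the same library, for the 3 replication genes on these chromosomes, with 95% counting intervals; the second marker is the median over the chromosome's genes. Every gene lies between -0.65 and -0.42, close to its chromosome's median, which lies below 0 because of how the cells were chosen.

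Because cells low in chromosome 11 were more frequent in the library labelled wild type, the library ratios of Pold2 and Cdc6 were also taken with such cells set aside. In cells above the limit Pold2 was at 68.7 and 88.1 CPM, a log2 ratio of 0.36 (0.31 to 0.41), nearly the value in all cells. In the low cells it was 0.13 (-0.08 to 0.33). Cdc6 was at -0.09 (-0.15 to -0.02) above the limit and at 0.01 (-0.26 to 0.27) below it. Mcm2 was at 0.00 (-0.03 to 0.03) above the limit of chromosome 6 and at -0.15 (-0.22 to -0.07) below it. The lower Cdc6 level in streak-marker cells of the library labelled double mutant was -0.58 (-0.85 to -0.33) among cells above the chromosome 11 limit, where 10.3% of the streak-marker cells and 5.58% of the others had been low.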

How the data were processed

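Single-cell RNA was measured in 1 library per genotype. Deposited by the authors were tables of UMI counts for each gene in each barcode, listing 6794880 barcodes per library and 104083993 and 103187025 UMIs in all. The labels' protocols name Cell Ranger 8.0.1 and give medians of 5333 and 5398 genes per cell, against 3275 and 2884 in the kept cells here. The submitters' processing notes name STARsolo, STAR 2.7.9a, Seurat 5.1.0 and mm10, and do not say which step made which file. Genes were placed with the GENCODE annotation of GRCm38.

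Counts of the kept cells were summed per library and divided by all their UMIs (CPM). Log2 ratios used a pseudocount of 0.5 counts. Intervals are exact Poisson or exact conditional binomial intervals at 95% and cover counting error only. Doublets were kept; an alternative removed 606 and 897 barcodes by a simulated-doublet score that separated poorly. Scripts ran in Python 3.11.15 with numpy 2.4.6, scipy 1.17.1 and pandas 2.3.3, and TMM factors came from edgeR 4.0.16. Ratio and correlation steps were tested on simulated data, and the sector step was not. The 41 genes, the lists and the limits were chosen with earlier results of these data known. All 41 genes are named, with Sp5 and Sp8 and the 3 other pathway genes furthest from 0. Alternatives covered the cell filters, doublets, TMM scaling, sector weights, thinning depth, fold limits and cells low in chromosome 6 or 11.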

Additional observations from a re-analysis of the deposited data

How the results depend on the processing

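No paired analysis was possible because there was 1 library per genotype, and for the same reason no replicate could be left out. The median log2 ratio of the 41 genes stayed below 0 in every alternative run, between -0.041 with equal sector weights and -0.0095 under TMM. Under TMM the all-gene median itself went from -0.023 to 0.0061. One gene more or less changed the counts between libraries: 0 genes were past an absolute log2 ratio of 0.5 on the higher side, and with equal sector weights 1 gene, Pcna, was past 0.25 on the lower side. Pold2 was between 0.37 and 0.42 over the alternatives that changed the cells or the scaling, 0.36 with only the cells low in chromosome 11 set aside, and 0.13 in those cells alone. The summed level of the library labelled wild type was 4279.55 CPM at a mitochondrial share of at most 5%, 4273.58 CPM with high doublet scores removed, 4219.07 CPM in cells not low in chromosome 6 or 11 and 4209.48 CPM with TMM scaling. That of the library labelled double mutant was 4171 CPM, 4156.03 CPM and 4177.8 CPM with the mitochondrial, doublet and TMM settings. Genes with a sector range of at least 1.5 times numbered 12 in the library labelled double mutant with cells thinned to 4000 UMIs, 3 in each library with quartiles of the mitotic list alone, and 2 in each at a limit of 2 times. The share of all genes was not counted at these settings, so these counts have no background beside them. The median correlation over the pairs of all replication genes with measurable spread, 0.32 and 0.34, was 0.361662 and 0.347013 in cells not low in chromosome 6 or 11, 0.356034 in the library labelled double mutant at 4000 UMIs or more and 0.345442 there at 5% mitochondrial share. It was 0.274827 and 0.296593 after subtracting sector means and 0.00609 and 0.00711 as a plain correlation of thinned counts, which keeps the counting noise. The main value of 0.34 includes estimates above 1, outside the possible range of a correlation. For Gins3 in the library labelled double mutant, the median estimate with the 15 genes of at least 100 mean CPM was 1.73. The alternatives on streak genes without Sp5 and on correlation without cells low in chromosome 6 or 11 were chosen after seeing the data. Of the single-gene values, 13 of 246 log2 ratios and 48 of 410 sector ranges left the counting interval. Except where an alternative's construction shows it, the cause was not tested. Depth limits the genes under 50 CPM and the ranges of fewer than 100 cells, where a change of 1.5 times can rest on 5 to 25 UMIs.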

Other observations

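Pold2 was compared with its neighbours on chromosome 11. Among 26 other genes of at least 10 mean CPM within 1 Mb, the median log2 ratio of the library labelled double mutant over the library labelled wild type was 0.11, from -0.27 to 0.26. Of these, 1 gene, Nudcd3, was past 0.25, at 0.26, and Pold2 at 0.39 was above all 26. The median over 664 genes of chromosome 11 was 0.05. Chromosome 5 holds 9 of the 41 replication genes (Orc5, Mcm7, Rfc1, Rfc2, Rfc3, Rfc5, Pole, Slbp and Ung), and their log2 ratios lay between -0.14 for Slbp and 0.12 for Mcm7.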
